A study of Mus musculus with 6 samples.

Results

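The 41 genes described here encode the TGF-beta and BMP signalling pathway and the Id proteins, and were measured by RNA sequencing in mouse sciatic nerve at postnatal day 3. They are the rows of the deposited table of 54838 genes whose Ensembl identifiers carry the listed symbols. All 41 were in the table and all 41 passed the low-count filter that left 18775 genes for testing. Both groups carry the strain label C57 Bl. One holds 3 libraries from wild-type (WT) nerves and the other 3 from nerves of the genotype CnpCre Actl6afl/fl, called cKO here, in which a Cre recombinase named for Cnp acts on a floxed Actl6a gene. The product of Actl6a, BAF53a, is an actin-related protein found in chromatin remodelling complexes. Cnp is expressed in myelinating glia, which in this nerve are Schwann cells. The sources do not say whether WT animals carried the floxed allele or Cre, or how many animals gave 1 library.

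TGF-beta, activin and BMP ligands are secreted dimers, and TGF-beta is stored in matrix in a latent form. Ligand binding joins type I and type II receptor kinases, which phosphorylate Smad2 and Smad3 on the TGF-beta and activin side and Smad1 and Smad5 on the BMP side. These bind Smad4 and enter the nucleus, where Id genes are direct targets of BMP signals and Smad6 and Smad7 feed back as inhibitors. Id proteins bind E proteins and keep them off DNA. In peripheral nerve, TGF-beta acts on Schwann cell proliferation and on nerve fibroblasts, and Id2 and Id4 are described as inhibitors of myelin gene expression.

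Nerve RNA of the cKO group held more transcript of several ligands of this pathway and of both listed antagonists, and the 2 Smads of the TGF-beta branch moved in opposite directions. With edgeR's quasi-likelihood test and Benjamini-Hochberg adjustment over all 18775 genes, 9 of the 41 were called higher in cKO, 2 were called lower and 30 were not called, at an adjusted p below 0.05. Among all genes tested 8.55% were called higher and 10.3% lower, 18.8% in all, against 26.8% of the 41. The 41 were chosen with earlier results of these data known, so their share is a description and not a test. The genes called higher were Tgfb2, Tgfb3, Bmp4, Bmp5, Bmp6, Nog, Grem1, Acvrl1 and Smad3, and those called lower were Bmpr2 and Smad2. The values of the groups did not overlap for 18 genes that were higher in cKO and 2 that were lower, where 21% and 21.7% of all genes did the same. The median log2 fold change of the 41 was 0.29, beside 0.045 for all genes tested.

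The libraries set limits on these calls. Total counts ran from 31404107 to 36760296 per library. The library cKO 2 stood apart: 8 skeletal muscle marker genes summed to 61786 CPM (counts scaled to a common library size with TMM factors) in it, against 3349.9 to 4884 CPM in the other 5 libraries, and 4 erythroid genes summed to 9905 CPM in cKO 1, against 1223 to 3889 CPM in the rest. Without cKO 2, 24 of the 41 were called higher and 3 lower, in a fit where 17.8% and 17.6% of all genes were, 35.4% together, and this set included all 11 of the first calls in the same direction. Of its 16 further calls, 0 were made without any other 1 library. Without WT 1 or WT 2, 0 of the 41 were called by edgeR, although 13 and 12 had an unadjusted p below 0.05. All genes called then made up 6.63% and 6.76%. DESeq2 on all 6 libraries called 13 of the 41, in a test that called 12.8% of 34828 genes with any count. That background also holds genes below the low-count filter. For unadjusted p, no share of all genes is given here or below. Actl6a itself had a WT mean of 49.4 ± 3.61 and a cKO mean of 43.8 ± 3.29 CPM (SD, n = 3 per group), with no call (edgeR adjusted p = 0.243), and Cnp fell 5.28-fold (edgeR adjusted p = 0.00146), so the targeted gene checks the labels only weakly in whole nerve.

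**Figure D1:**
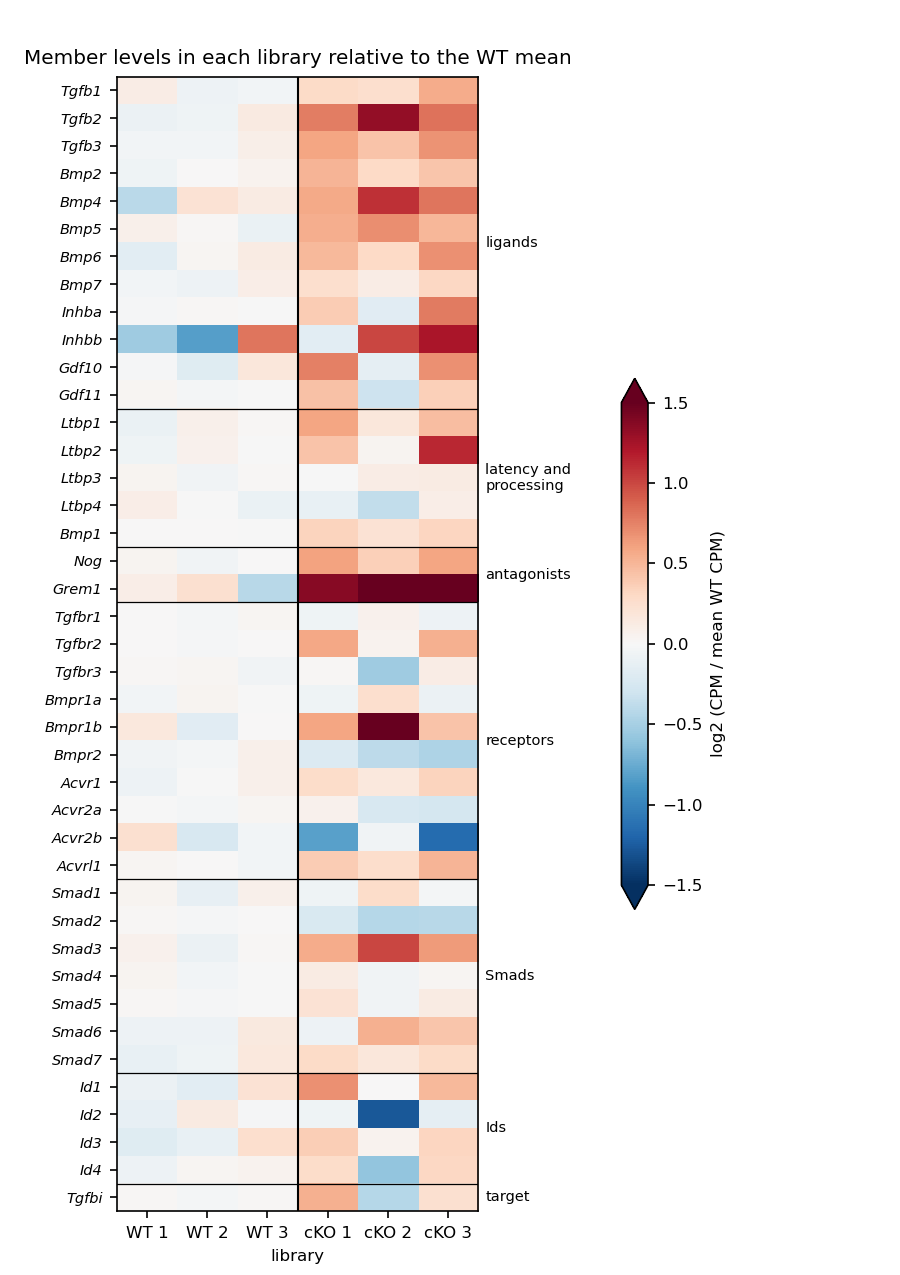
Level of each of the 41 genes (rows, grouped by role) in each of the 6 libraries (columns), as log2 of CPM over the mean CPM of the 3 WT libraries, with colours saturating at 1.5 either way. The ligand rows are mostly red in the cKO columns, while Id2, Id4 and Tgfbi are bluer in cKO 2 than in cKO 1 and 3.

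Cell type markers moved between the groups too. The 6 Schwann cell markers, all with counts in every library, summed to 21350.3 to 24879 CPM in WT and 2609 to 4667 CPM in cKO, and 4 of the 6 were called lower. The 6 macrophage markers summed to 404 to 458 CPM in WT and 663 to 838 CPM in cKO, with 4 of 6 called higher. Fibroblast markers summed to 34843 to 35148 CPM in WT and to 44447, 34567 and 41807 CPM in cKO 1, 2 and 3, with 0 of 6 called by edgeR or DESeq2 and 1 at an unadjusted p below 0.05, and without cKO 2 edgeR called 3 of the 6 higher. The 7 endothelial markers summed to 499.8 to 524 CPM in WT and 597 to 687 CPM in cKO, with 1 of 7 called higher. All 4 mast cell markers were called higher, with sums of 163 to 206 CPM in WT and 274 to 359 CPM in cKO. Of the perineurial, erythroid and neuron markers, 2 of 5, 2 of 4 and 2 of 4 were called higher. The counts on all 6 libraries stand beside 8.55% of all genes called higher and 10.3% lower. Without cKO 2, edgeR called 17.8% of all genes higher and 17.6% lower. That fit also called 5 of 5 perineurial, 5 of 6 macrophage, 4 of 4 mast cell and 3 of 4 neuron markers higher. It called 5 of 6 Schwann cell markers lower and 1 higher, 1 of 7 endothelial markers higher and 0 of 4 erythroid markers. In bulk nerve, a change in the number of cells of a type and a change in RNA per cell cannot be told apart, and the part of these shifts in the results below was not tested.

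In WT nerve the members spanned more than 3 orders of size per length. The unit TPM, which divides counts by the exonic length counted and so allows genes to be compared, ranked Tgfbi first, at 400.4 ± 17.8 TPM (SD, n = 3). Tgfbi is a secreted matrix protein named for its induction by TGF-beta. Id2 came next (278 ± 18.9 TPM), followed by the co-receptor Tgfbr3 (155 ± 8.06 TPM), the latent TGF-beta binding protein Ltbp4 (128 ± 12.97 TPM) and the type I BMP receptor Bmpr1a (123 ± 2.25 TPM). The ranges of Ltbp4 and Bmpr1a overlapped, so their order is not resolved. Among ligands Tgfb3 stood first, at 54.2 ± 2.30 TPM, and made up 39.7 to 40.5% of the summed TPM of the 12 ligands in WT. Gdf11 (12.6 ± 0.591 TPM), Bmp6 (11.7 ± 0.840 TPM), Tgfb2 (11.03 ± 0.782 TPM), Bmp7 (10.7 ± 0.643 TPM) and Tgfb1 (10.7 ± 1.11 TPM) followed, and the ranges of neighbours in that order overlapped. Grem1 (0.267 ± 0.0623 TPM) and Inhbb (0.432 ± 0.272 TPM) were lowest, with 10 to 15 counts of Grem1 and 12 to 39 counts of Inhbb per WT library.

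**Figure D2:**
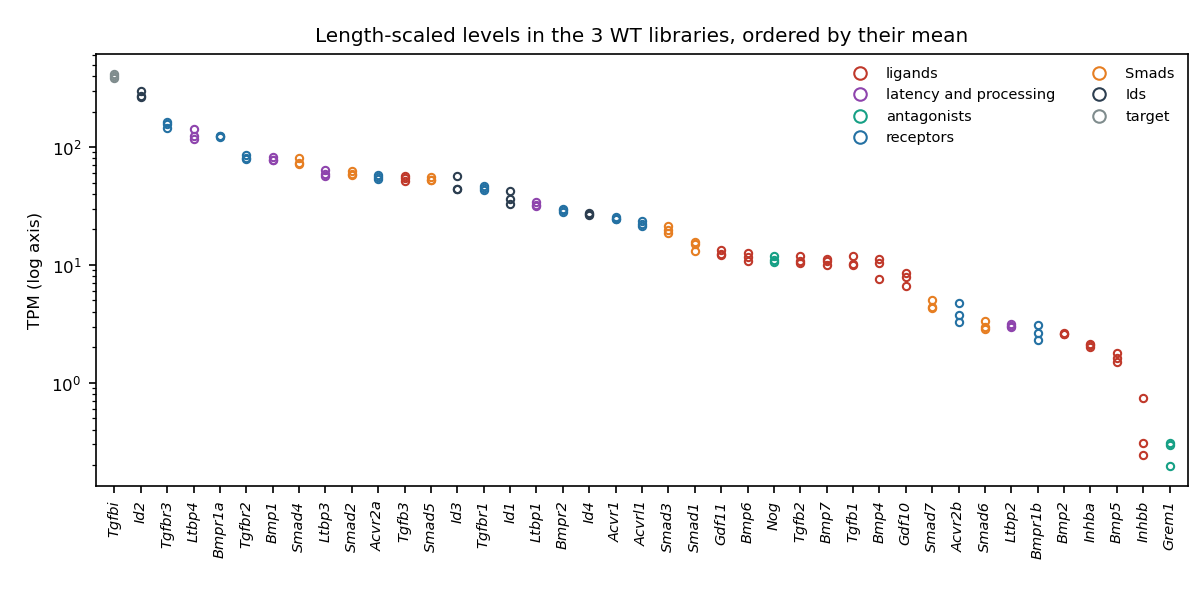
TPM (log axis) of the 41 genes in the 3 WT libraries, 1 open circle per library, coloured by role and ordered by mean level. Tgfbi, Id2, Tgfbr3, Ltbp4 and Bmpr1a lead the order, and of the ligands Tgfb3 alone lies above 50 TPM.

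Ligands were the role in which most calls fell. All 12 had a positive log2 fold change, from 0.20 for Gdf11 to 0.99 for Tgfb2, and stayed positive in each of the 12 alternative fits. Of the 12, 5 were called higher and 0 lower, where 8.55% and 10.3% of all genes were, and 7 had an unadjusted p below 0.05. DESeq2 called 4, all but Bmp5 of the same genes. Without cKO 2, 10 of 12 were called higher, in a fit that called 17.8% of all genes higher.

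Tgfb2, a TGF-beta isoform that needs the co-receptor Tgfbr3 for high-affinity binding, had the largest change of the ligands. It read 19.9, 20.3 and 23.3 CPM in the WT libraries and 36.1, 52.6 and 37.2 CPM in cKO 1, 2 and 3. Every cKO library lay above every WT library, with cKO 2 the highest. Tgfb2 (ENSMUSG00000039239, GRCm38 chr1:186622792-186705989) rose 1.99-fold, between a WT mean of 21.1 ± 1.85 and a cKO mean of 41.97 ± 9.24 CPM (SD, n = 3 per group), with a log2 fold change of 0.99 (95% interval 0.60 to 1.38, edgeR adjusted p = 0.00901). Without cKO 2 the log2 fold change of Tgfb2 was smaller, at 0.79 (edgeR adjusted p = 2.62e-05). Tgfb3, the isoform with the highest level here, read 58.8, 58.9 and 64.4 CPM in the WT libraries and 91.2, 81.4 and 96.7 CPM in cKO 1, 2 and 3. The groups did not overlap and cKO 2 was the lowest of its group. Tgfb3 (chr12:86056745-86079041) rose 1.48-fold (log2 fold change 0.56, edgeR adjusted p = 0.00863), although 12.4% of its exonic bases lie in exons of other genes, where unstranded counting loses or mixes fragments. Both calls were lost without WT 1 or WT 2 and held in the other 10 alternative fits. Tgfb1, the isoform linked to fibrosis and immune control, read 19.3, 16.9 and 17.3 CPM in the WT libraries and 21.8, 21.3 and 26.2 CPM in cKO 1, 2 and 3. Its groups did not overlap either, but the log2 fold change of 0.37 missed the threshold (edgeR adjusted p = 0.0714).

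Among BMP ligands, Bmp4, which patterns the neural crest and mesenchyme, read 5.48, 8.41 and 7.91 CPM in the WT libraries and 10.8, 15.5 and 12.7 CPM in cKO 1, 2 and 3. It rose 1.78-fold (chr14:46383520-46390669, log2 fold change 0.83, 95% interval 0.34 to 1.33, edgeR adjusted p = 0.0360). Without cKO 2, its highest library, the log2 fold change was 0.69 (edgeR adjusted p = 0.00906). The spread in WT was wide, with WT 1 below the other libraries, and the call was lost without any 1 WT library or cKO 3. Bmp6, a ligand that also controls hepcidin in the liver, read 13.5, 15.4 and 16.5 CPM in the WT libraries and 21.3, 18.6 and 24.3 CPM in cKO 1, 2 and 3. Its values did not overlap, and its log2 fold change was 0.50 (chr13:38345107-38500302, edgeR adjusted p = 0.0443). The call held in 5 of 12 alternative fits and was lost without any 1 library other than cKO 2, and 5.74% of its exonic bases lie in exons of Txndc5. Bmp5 read 2.29, 2.19 and 2.03 CPM in the WT libraries and 3.16, 3.52 and 3.06 CPM in cKO 1, 2 and 3, from 74 to 107 counts per library. Its log2 fold change of 0.58 lay just inside the threshold (chr9:75775364-75900310, edgeR adjusted p = 0.0496), and the call held in 2 of 12 alternative fits. Of its exonic bases, 46.7% also belong to the gene model Gm26903, so its count is uncertain. Bmp2 (0.41, edgeR adjusted p = 0.101) and Bmp7 (0.23, edgeR adjusted p = 0.186) were not called. Neither overlapped between groups, but for Bmp7 the lowest cKO value nearly met the highest WT value.

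Activin subunits and growth differentiation factors were not called with all 6 libraries. Gdf11, a relative of myostatin, read 17.2, 16.7 and 16.9 CPM in the WT libraries and 22.9, 13.7 and 21.8 CPM in cKO 1, 2 and 3. In cKO 1 and cKO 3 it was above WT and in cKO 2 below it, and its log2 fold change was 0.20 (edgeR adjusted p = 0.488) with all libraries and 0.40 without cKO 2 (adjusted p = 0.00538). Gdf10, also known as BMP3b, read 13.1, 11.7 and 14.9 CPM in the WT libraries and 22.3, 12.1 and 21.3 CPM in cKO 1, 2 and 3, where cKO 1 and cKO 3 were above WT and cKO 2 was within it. Its log2 fold change was 0.49 (edgeR adjusted p = 0.198) with all libraries and 0.72 (adjusted p = 0.000313) without cKO 2. Inhba, the activin A subunit, changed from 0.38 (edgeR adjusted p = 0.299) to 0.59 (adjusted p = 0.0113) on leaving out that library, and was 0.13 without cKO 3 (adjusted p = 0.708). Inhbb, the activin B subunit, was too low and variable to place, with a 95% interval of -0.47 to 2.05.

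Both antagonists were called higher, as were 8.55% of all genes. Grem1 (gremlin 1), which binds BMP2 and BMP4 and keeps them from their receptors, read 0.391, 0.432 and 0.274 CPM in the WT libraries and 0.942, 1.26 and 2.11 CPM in cKO 1, 2 and 3, from 10 to 15 counts in WT and 31 to 74 in cKO. All cKO values lay above all WT values, at a low level. It rose 3.92-fold (chr2:113746164-113758646, log2 fold change 1.97, 95% interval 1.06 to 2.88, edgeR adjusted p = 0.0154), the largest change of the 41, and the call was lost without any 1 WT library. Nog (noggin), which also traps BMP ligands, read 6.44, 6.05 and 6.29 CPM in the WT libraries and 9.54, 8.04 and 9.43 CPM in cKO 1, 2 and 3. Its groups were apart as well, and it rose 1.44-fold (chr11:89300638-89302332, log2 fold change 0.52, edgeR adjusted p = 0.0319). This call held in 5 of 12 alternative fits.

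The promoters of Tgfb2 and Grem1 are shown because these were the ligand and the antagonist with the largest fold changes. Each is the 250 bases before the RefSeq start site (GRCm38.p6) nearest the counted gene's 5′ end, Tgfb2 at chr1:186705990-186706239 and Grem1 at chr2:113758649-113758898, both on the minus strand and written 5′ to 3′. Capitals mark the Smad box CAGAC and the letters GGCGCC found in BMP-responsive elements, searched on both strands.
Tgfb2: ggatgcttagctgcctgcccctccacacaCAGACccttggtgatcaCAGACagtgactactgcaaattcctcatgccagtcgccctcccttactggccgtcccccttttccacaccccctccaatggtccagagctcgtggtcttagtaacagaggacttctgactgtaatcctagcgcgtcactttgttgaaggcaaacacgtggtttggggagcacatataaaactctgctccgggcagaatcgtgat
Grem1: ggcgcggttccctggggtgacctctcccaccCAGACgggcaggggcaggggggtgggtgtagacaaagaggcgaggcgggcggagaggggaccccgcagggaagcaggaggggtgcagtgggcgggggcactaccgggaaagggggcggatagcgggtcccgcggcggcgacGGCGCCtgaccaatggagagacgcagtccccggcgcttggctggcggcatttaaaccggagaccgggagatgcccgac
The Tgfb2 window holds CAGAC at 2 places, starting 221 and 204 bases before the start site, and no GGCGCC. Of its 250 bases, 167 also lie in an exon of Gm29491, a gene model on the opposite strand. The Grem1 window holds CAGAC once, 219 bases before the start, and GGCGCC once, 78 bases before it. Of the other genes called higher that have a window, Bmp5 and Bmp6 hold CAGAC but no GGCGCC, and Bmp4 and Smad3 hold neither. CAGAC occurred in 14 of the 30 members with a promoter in the table and in 42.2% of all 32851 promoter windows of this length, and GGCGCC in 7 of 30 and 9.59%. Those with GGCGCC were Grem1, called higher, Bmpr2, called lower, and Tgfbr1, Bmpr1a, Id2, Id4 and Tgfbi, not called. G and C made up 62.4 to 78.8% of their windows, and the background was not matched for this content. These matches describe letters, and nothing here measured binding.

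Of the 10 receptors, 1 was called higher, 1 lower and 8 were not called, which is near the share of all genes (8.55% higher and 10.3% lower), with a median log2 fold change near 0 (0.0068). Bmpr2, the type II receptor of BMP ligands, read 167, 169 and 182 CPM in the WT libraries and 149, 132 and 126 CPM in cKO 1, 2 and 3. The groups did not overlap, and Bmpr2 (chr1:59763400-59879014) fell 1.27-fold, just inside the threshold (log2 fold change -0.35, 95% interval -0.58 to -0.12, edgeR adjusted p = 0.0491). That call held in 5 of 12 alternative fits. Acvrl1 (ALK1), a type I receptor of endothelial cells, read 32.1, 31.6 and 30.6 CPM in the WT libraries and 40.99, 37.8 and 44.8 CPM in cKO 1, 2 and 3. It rose 1.31-fold (chr15:101128522-101145336, log2 fold change 0.39, edgeR adjusted p = 0.0293), and its call also held in 5 of 12.

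The most abundant receptors were not called. Tgfbr3, the co-receptor betaglycan, read 338, 342 and 322 CPM in the WT libraries and 339, 230.0 and 360.0 CPM in cKO 1, 2 and 3, so that cKO 2 alone was low, and its log2 fold change was -0.11 (95% interval -0.52 to 0.30, edgeR adjusted p = 0.673). Bmpr1a read 253, 266 and 259 CPM in the WT libraries and 248, 308 and 243 CPM in cKO 1, 2 and 3, with overlapping groups and a log2 fold change of 0.039 (95% interval -0.23 to 0.31, edgeR adjusted p = 0.834). Tgfbr1, the type I TGF-beta receptor, had a log2 fold change of -0.026 (95% interval -0.21 to 0.16). Its type II partner Tgfbr2 read 222, 219 and 221 CPM in the WT libraries and 330.2, 229 and 321 CPM in cKO 1, 2 and 3. There cKO 1 and cKO 3 were high and cKO 2 was close to WT, and the log2 fold change of 0.41 (edgeR adjusted p = 0.102) became 0.56 without cKO 2 (adjusted p = 5.88e-05).

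A single library set the value of Bmpr1b, a type I BMP receptor of cartilage and neural tissue. It read 5.87, 4.67 and 5.28 CPM in the WT libraries and 7.96, 20.7 and 7.09 CPM in cKO 1, 2 and 3, and the log2 fold change of 1.17 (edgeR adjusted p = 0.112) was 0.51 without cKO 2 (adjusted p = 0.0176). Acvr2b, a type II activin receptor, read 5.99, 4.32 and 4.95 CPM in the WT libraries and 2.89, 4.92 and 2.29 CPM in cKO 1, 2 and 3. Here cKO 1 and cKO 3 were below WT and cKO 2 was within it, with log2 fold changes of -0.60 (edgeR adjusted p = 0.205) and, without cKO 2, -0.98 (adjusted p = 0.00181). Acvr1 (0.26, edgeR adjusted p = 0.0871) and Acvr2a (-0.13, edgeR adjusted p = 0.402) were not called. The share of Acvr2a exonic bases within exons of Orc4 or others was 7.84%.

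**Figure D3:**
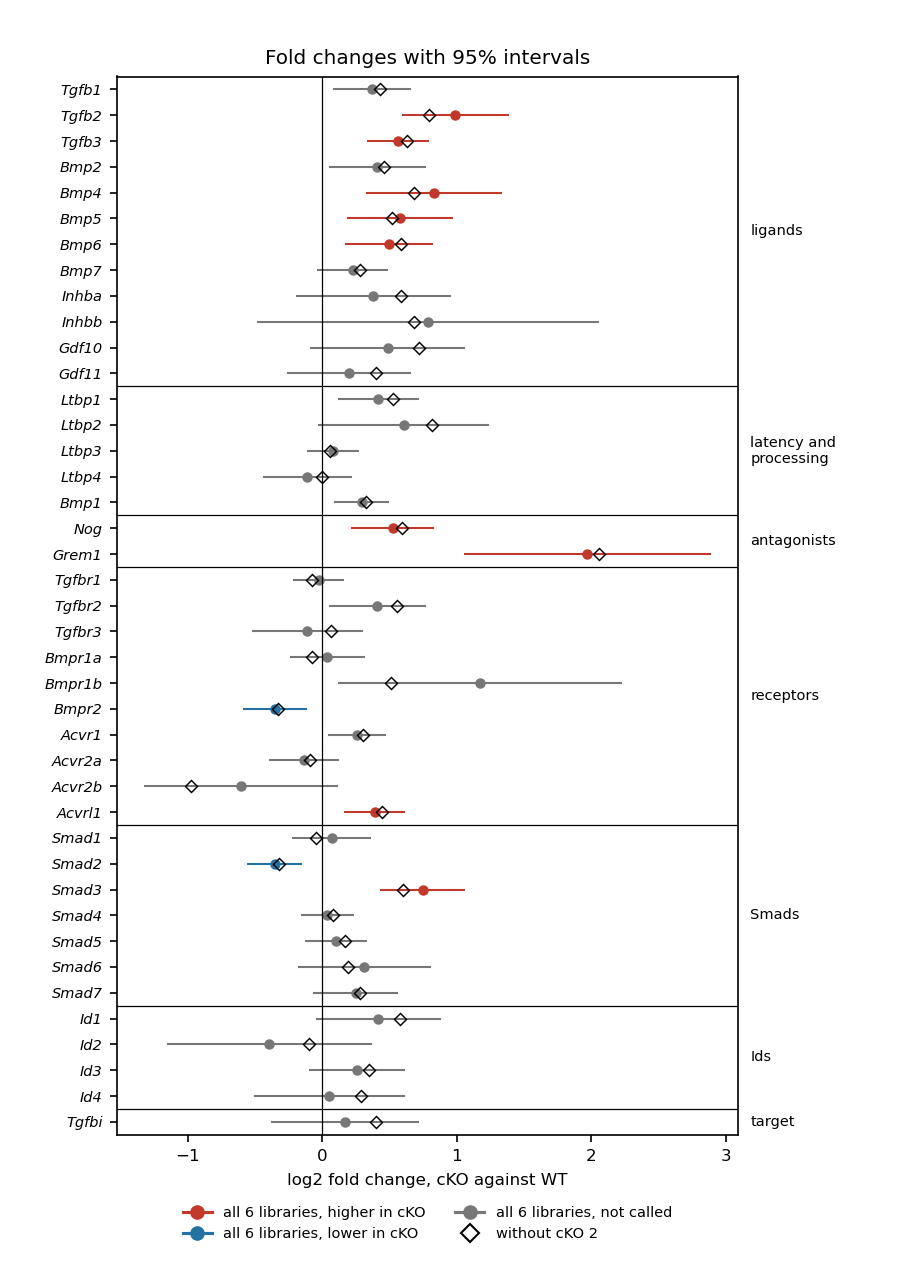
Log2 fold change of each gene, cKO against WT, with its 95% interval from edgeR on all 6 libraries (filled circles, red for higher, blue for lower, grey for not called) and the estimate without cKO 2 (open diamonds). All 12 ligands lie right of 0 in both fits, Bmpr1b and Acvr2b move most when cKO 2 is left out, and Smad2 and Smad3 lie on opposite sides of 0.

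Proteins that store, release or process the ligands were not called with all 6 libraries (0 of 5 by edgeR, 2 at an unadjusted p below 0.05, and 2 by DESeq2, which were Ltbp1 and Bmp1). Of all genes, edgeR called 18.8%. Bmp1, a metalloprotease that trims procollagens and chordin and is no BMP ligand, read 233, 232 and 231 CPM in the WT libraries and 292, 269.8 and 290.4 CPM in cKO 1, 2 and 3. All cKO libraries were higher, and the log2 fold change of 0.29 lay just outside the threshold (chr14:70474558-70520234, edgeR adjusted p = 0.0520). Ltbp1, which tethers latent TGF-beta to matrix, read 108, 122 and 116 CPM in the WT libraries and 174, 130.2 and 159 CPM in cKO 1, 2 and 3, again without overlap (0.42, edgeR adjusted p = 0.0576). Ltbp4, an elastic fibre protein and the most abundant of the group, read 293, 272 and 254 CPM in the WT libraries and 254, 212 and 293 CPM in cKO 1, 2 and 3, with overlapping groups (-0.11, 95% interval -0.43 to 0.21, edgeR adjusted p = 0.588). Ltbp2 (0.61, edgeR adjusted p = 0.159) was highest in cKO 3, and Ltbp3 (0.080, edgeR adjusted p = 0.498) stayed near WT. Without cKO 2, Ltbp1 (0.53), Ltbp2 (0.82) and Bmp1 (0.33) were called higher, in a fit that called 17.8% of all genes higher. Ltbp2 was 0.25 without cKO 3 (adjusted p = 0.343).

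Of the 7 Smads, 1 was called higher, 1 lower and 5 were not called, beside 8.55% of all genes called higher and 10.3% lower. Smad3, a transcription factor activated by TGF-beta and activin receptors, read 38.2, 34.6 and 37.2 CPM in the WT libraries and 54.1, 73.5 and 57.1 CPM in cKO 1, 2 and 3. The groups were well apart and cKO 2 was highest. Smad3 (chr9:63646767-63757994) rose 1.68-fold, between a WT mean of 36.6 ± 1.88 and a cKO mean of 61.5 ± 10.5 CPM (SD, n = 3 per group), with a log2 fold change of 0.75 (95% interval 0.44 to 1.06, edgeR adjusted p = 0.0105). Without cKO 2 the log2 fold change of Smad3 was smaller, at 0.60 (edgeR adjusted p = 8.78e-05). Smad2, its partner in the same branch, read 70.9, 69.2 and 70.3 CPM in the WT libraries and 59.6, 52.3 and 52.8 CPM in cKO 1, 2 and 3. Every cKO library lay below every WT library. Smad2 fell 1.28-fold, between a WT mean of 70.1 ± 0.901 and a cKO mean of 54.9 ± 4.11 CPM (SD, n = 3 per group), with a log2 fold change of -0.35 (95% interval -0.55 to -0.16, edgeR adjusted p = 0.0288). The call of Smad3 was lost without any 1 WT library and held in the other 9 alternative fits. That of Smad2 held in 6 of 12, and its sign did not change in any of them.

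Per length as counted, the ratio of Smad2 to Smad3 TPM was 2.90, 3.13 and 2.95 in WT and 1.72, 1.11 and 1.44 in cKO 1, 2 and 3. The ratio does not depend on library scaling, and its ranges did not overlap between groups. Per length as counted, Smad2 was above Smad3 in every library. The exonic length of Smad2 was 3549 bases as counted and is 8781 bases in the later gene models used for symbols. That of Smad3 is 5542 bases in both. With the later lengths the ratio was 1.17, 1.26 and 1.19 in WT and 0.696, 0.449 and 0.584 in cKO 1, 2 and 3. Fragments were not counted over the further bases of Smad2, so the ratio with the later lengths cannot say which gene is higher. How the levels compare over the later gene models is not settled by these counts.

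The other Smads stayed within the spread or missed the threshold. Smad4, the partner shared by both branches, read 95.3, 89.6 and 92.2 CPM in the WT libraries and 101, 89.3 and 94.4 CPM in cKO 1, 2 and 3 (0.038, 95% interval -0.15 to 0.23). Smad5, of the BMP branch, read 133, 129.9 and 131 CPM in the WT libraries and 153, 127 and 143 CPM in cKO 1, 2 and 3 (0.10, 95% interval -0.12 to 0.32), and Smad1 read 31.02, 27.8 and 31.8 CPM in the WT libraries and 28.99, 36.7 and 29.6 CPM in cKO 1, 2 and 3 (0.072, 95% interval -0.21 to 0.36). The inhibitory Smad7, a target of TGF-beta itself, read 6.38, 6.57 and 7.69 CPM in the WT libraries and 8.42, 7.75 and 8.37 CPM in cKO 1, 2 and 3. Its groups were apart by a small gap, and the log2 fold change of 0.25 was not called (edgeR adjusted p = 0.221). Smad6, the inhibitor induced by BMP signals, read 3.07, 3.08 and 3.58 CPM in the WT libraries and 3.07, 4.70 and 4.34 CPM in cKO 1, 2 and 3, with 101 to 152 counts and overlapping groups (0.31, edgeR adjusted p = 0.313).

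The Id genes depended on 1 library. With all 6 libraries 0 of 4 were called by edgeR, 0 had an unadjusted p below 0.05 and DESeq2 called 0. Without cKO 2, 3 of 4 were called higher, where the share of all genes called higher rose as well, from 8.55% to 17.8%. Without any other 1 library, 0 of 4 were called by edgeR. Id2, the most abundant Id gene, read 207, 246 and 221 CPM in the WT libraries and 215, 92.99 and 205 CPM in cKO 1, 2 and 3. The value of cKO 1 lay within the WT range and that of cKO 3 just under it, while cKO 2 was far below, and the log2 fold change moved from -0.39 (95% interval -1.15 to 0.36, edgeR adjusted p = 0.402) to -0.099 without cKO 2 (adjusted p = 0.405). Id4 read 32.7, 35.1 and 35.8 CPM in the WT libraries and 41.7, 22.97 and 42.7 CPM in cKO 1, 2 and 3, so that cKO 2 was low and the other cKO libraries were above WT. Its log2 fold change was 0.054 (edgeR adjusted p = 0.890) with all libraries and 0.29 (adjusted p = 0.0152) without cKO 2. It turned negative without either of the others, at -0.071 without cKO 1 (adjusted p = 0.865) and -0.093 without cKO 3 (adjusted p = 0.827).

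Id1, a classical direct target of BMP receptors, read 13.4, 12.8 and 16.6 CPM in the WT libraries and 22.8, 14.4 and 19.9 CPM in cKO 1, 2 and 3. In cKO 1 and cKO 3 it exceeded all WT libraries, and in cKO 2 it fell among them. The log2 fold change was 0.42 (edgeR adjusted p = 0.175), and 0.58 without cKO 2 (adjusted p = 0.00268). Id3, which is often induced together with Id1, read 25.4, 26.7 and 34.3 CPM in the WT libraries and 37.2, 29.9 and 36.2 CPM in cKO 1, 2 and 3. It followed the same order (0.26, edgeR adjusted p = 0.258, and 0.35 without cKO 2, adjusted p = 0.0417). Within the 4 genes, Id2 took 71.2, 74.2 and 67.96% of the summed TPM in WT and 63.2, 52.1 and 63.5% in cKO 1, 2 and 3, so the ranges of this share did not overlap, with or without cKO 2. The E proteins that Id proteins bind are encoded by Tcf3, Tcf4 and Tcf12. Of these Tcf3 was called, at 107, 98.2 and 101 CPM in the WT libraries and 82.9, 78.5 and 85.5 CPM in cKO 1, 2 and 3 (-0.31, edgeR adjusted p = 0.0360), lower in every cKO library.

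**Figure D4:**
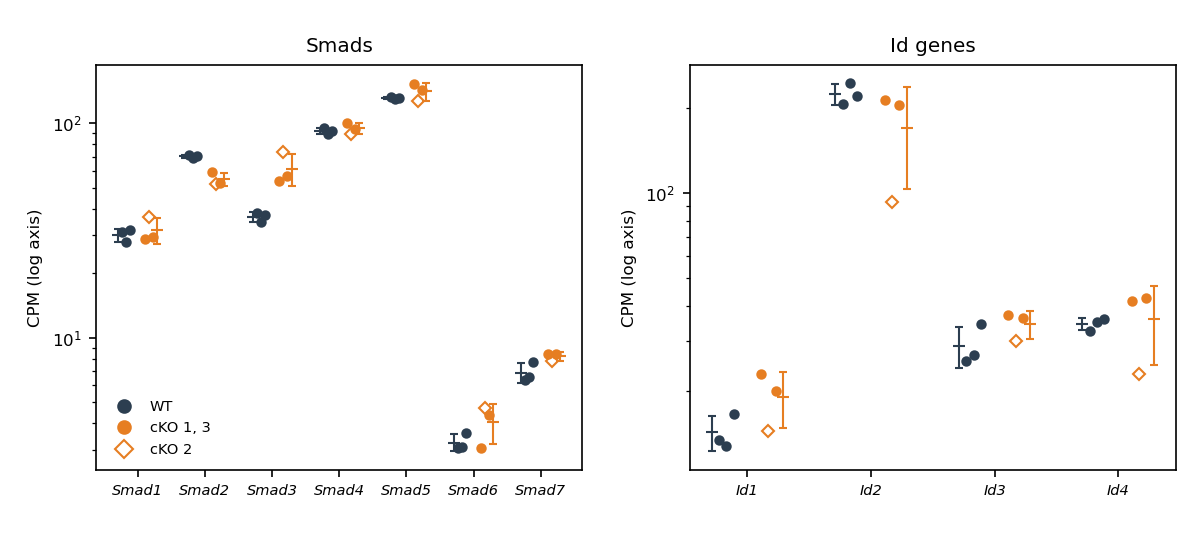
CPM (log axis) of the 7 Smad genes and 4 Id genes in each library, with WT in dark blue, cKO 1 and 3 in filled orange and cKO 2 as an open diamond; short bars with whiskers give the mean and SD of each group (n = 3). Smad2 and Smad3 separate by group in opposite directions, and cKO 2 lies far below the rest for Id2 and Id4.

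Tgfbi read 505, 487 and 505 CPM in the WT libraries and 725, 372 and 591 CPM in cKO 1, 2 and 3. Here too cKO 1 and cKO 3 were above WT and cKO 2 below it, with a log2 fold change of 0.17 (95% interval -0.37 to 0.72, edgeR adjusted p = 0.617) and of 0.40 without cKO 2 (adjusted p = 0.00496). The sign turned on leaving out another library, to -0.053 without cKO 1 (adjusted p = 0.872). The genes low in cKO 2 relative to the other cKO libraries, among them Tgfbi, Id2, Id4, Tgfbr3 and Gdf11, were low in the library with the highest muscle marker sum and the lowest fibroblast and Schwann marker sums. The part of muscle RNA in that library's values was not tested gene by gene. With the muscle marker sum as a covariate, 22 of the 41 were called higher and 3 lower, close to the counts without cKO 2. Of the 11 first calls, 10 were kept, all but Bmp5. The sum was 61786 CPM in cKO 2 and 3349.9 to 4884 CPM elsewhere, so the covariate nearly marks cKO 2. The fit therefore almost repeats leaving that library out and cannot test the part of muscle RNA.

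Other genes of the pathway, 87 in lists drawn up beside the 41, gave 74 tested, of which 11 were called higher and 3 lower. Of all genes 8.55% were called higher and 10.3% lower. With directions pooled, the share was 18.9% against 18.8% of all genes. The lists were chosen with earlier results of these data known. These shares therefore describe the lists and cannot test a lean in direction. Of 15 other extracellular antagonists tested, 4 were called higher and 1 lower, beside 8.55% and 10.3% of all genes. Bmper, a secreted BMP-binding modulator, read 5.57, 6.51 and 6.65 CPM in the WT libraries and 12.8, 14.2 and 11.9 CPM in cKO 1, 2 and 3, with every cKO library above WT (1.05, edgeR adjusted p = 0.00335). Kcp (kielin/chordin-like protein, 0.47, edgeR adjusted p = 0.0149) and Chrd (chordin, 0.47, edgeR adjusted p = 0.0173) were called, as was Dand5 (0.76). The gene called lower was Sostdc1, an antagonist of BMP and Wnt signals, at 183, 204 and 176 CPM in the WT libraries and 97.6, 56.9 and 113 CPM in cKO 1, 2 and 3 (-1.07, edgeR adjusted p = 0.0290). Dand5, Sostdc1 and, below, Junb and Ccn2 were named after their values were seen.

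Of 10 genes of latency and activation, 3 were called higher and 0 lower, beside 8.55% and 10.3% of all genes. Fbn1 (fibrillin 1), whose microfibrils anchor latent complexes, read 1049, 1059 and 1082 CPM in the WT libraries and 1618, 1582 and 1640.5 CPM in cKO 1, 2 and 3 (0.60, edgeR adjusted p = 0.00766). Its cKO values were tight, cKO 2 included. Nrros, which holds latent TGF-beta on macrophages and microglia, was called at 0.78 (edgeR adjusted p = 0.00526) and Thbs1, an activator of latent TGF-beta, at 0.61 (edgeR adjusted p = 0.0496). Of 18 intracellular regulators, Trim33, a partner of Smad2 and Smad3, was the 1 called and was lower (-0.47, edgeR adjusted p = 0.0125). That is 5.56% of the list, under the 18.8% of all genes called.

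Of 11 tested genes known as targets, 4 were called higher and 0 lower, again beside 8.55% and 10.3% of all genes. Postn (periostin), a matrix protein of fibroblasts, read 4211, 4987 and 4412 CPM in the WT libraries and 10853, 7594 and 10036 CPM in cKO 1, 2 and 3. It had the largest change of that list (1.07, edgeR adjusted p = 0.00753). Snai2 (0.67), Hey1 (0.77) and Junb (0.67) were the others called. Ccn2 (0.11, edgeR adjusted p = 0.719), widely used as a readout of TGF-beta signals, was not called. Among 8 other ligands and 9 other receptors 0 were called by edgeR, 4 and 2 had an unadjusted p below 0.05, and DESeq2 called 2 and 1. Without cKO 2, 22 of 76 tested genes of these lists were called higher and 4 lower. The share of all genes called in that fit was 17.8% higher and 17.6% lower, 35.4% together. The 26 called of 76 did not exceed the pooled share, with the higher calls above their share and the lower calls below it. Given how the lists were chosen, this too is a description and not a test.

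How many of the 41 were called varied between fits, as did the share of all genes called, and each count stands here beside its own background. With DESeq2 size factors in edgeR, 8 were higher and 2 lower (8.51% and 10.2% of all genes, 18.7% together), and with upper-quartile factors 8 and 0 (8.55% and 7.9%, 16.5% together). DESeq2's own test called 11 higher and 2 lower (6.11% and 6.67%, 12.8% together), and edgeR with no low-count filter 6 and 1 (4.57% and 5.45%, 10% together). The shares of all genes in these fits are over 34828 genes with any count, not the 18775 that passed the filter. All 41 members passed it, so these shares are an unlike background. With the replicate number as a block, 5 were higher and 0 lower (3.96% and 5.9%, 9.86% together), and with the muscle covariate 22 and 3 (17.8% and 17.7%, 35.5% together).

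Leaving out libraries gave the widest range. Without WT 1, the background was 2.33% higher and 4.3% lower, and without WT 2 it was 2.5% and 4.26%. Without WT 3, Tgfb2 and Tgfb3 were called higher and 0 members lower (2.36% and 4.09%, 6.45% together). Without cKO 1, 5 were higher and 2 lower (7.02% and 9.24%, 16.3% together), and without cKO 3, 4 and 0 (4.38% and 6.11%, 10.5% together). Tgfb2 and Tgfb3 were called in 10 of the 12 alternative fits and Grem1 and Smad3 in 9, more than any other member. In all such tallies the muscle covariate fit and the fit without cKO 2 each count, although they are nearly the same.

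**Figure D5:**
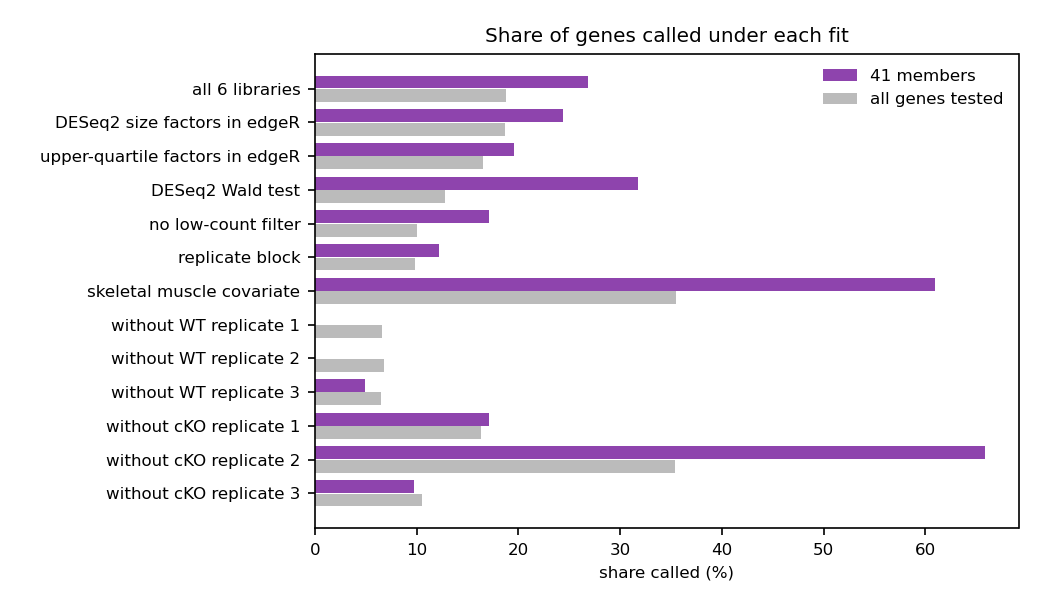
Share (%) of the 41 genes (purple) and of all genes tested (grey) called at an adjusted p below 0.05 in the fit on all 6 libraries and in each of 12 alternative fits. The share of the 41 runs from 0% without WT 1 or WT 2 to 65.9% without cKO 2, and that of all genes from 6.45% without WT 3 to 35.5% with the muscle covariate. For the DESeq2 test and the fit with no low-count filter, the grey bars are over 34828 genes, not the 18775 of the main fit.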

How the data were processed

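The authors deposited raw fragment counts per gene for 6 libraries of sciatic nerve RNA, about 150 ng of total RNA each per the labels' protocols. Per the file headers, featureCounts 1.6.1 counted paired fragments with both ends aligned, at a mapping quality of at least 20, over exons of Ensembl GRCm38 release 95, without strand. Subread 2.0 and DESeq2 1.3 stand in the submitters' processing notes without a role. Alignment settings: not given in the sources used here.

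Symbols came from a GENCODE M21 table (GRCm38), which matched 54723 of 54838 identifiers. All rows name a gene. Counts were tested with edgeR 4.0.16 in R 4.3.3: filterByExpr by group (minimum count 10), TMM scaling, a robust quasi-likelihood F test, 2-sided, 3 WT against 3 cKO libraries without pairing, with Benjamini-Hochberg adjustment over 18775 genes. Intervals (95%) of fold changes come from the quasi-likelihood statistic. CPM and TPM were computed here from the deposited counts and exonic lengths. The script was tested on simulated data. DESeq2 1.42.0 was an alternative.

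The labels do not say whether a replicate number marks a shared litter or day, so the libraries were not paired. Counts of libraries within a group varied beyond sampling noise, and since no source names separate animals, p-values measure the spread between libraries, which may be technical. Exon overlaps were checked in GENCODE M21 and promoters in a RefSeq table (30 of 41 matched). The members and lists were chosen with earlier results of these data known. Values in every library are given for each member called, the Smads and Ids and the 2 most abundant members per role. Those of further members (Tgfb1, Gdf10, Ltbp1, Tgfbr2, Bmpr1b and Acvr2b) were added after their values were seen. From each further list, up to 3 called genes with the smallest p are named.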

Additional observations from a re-analysis of the deposited data

How the results depend on the processing

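Calls depended most on which libraries entered. In the fits without 1 library, all genes called higher ranged from 449 to 3425 and lower from 790 to 3398, and members called higher from 0 to 24 and lower from 0 to 3. The lowest member counts were those without WT replicate 1 or 2 and the highest those without cKO replicate 2. These fits have fewer libraries, and the cause was not tested beyond that. With the skeletal muscle covariate, 3334 genes were higher and 3331 lower, with 22 members higher. This covariate nearly marks cKO 2, so the fit almost repeats leaving that library out. Upper-quartile factors left 0 members lower, and the fit with no low-count filter, on 34828 genes, left 1. The sign of all 11 member calls was the same in all 12 alternatives.

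With the replicate block, 744 genes were higher and 1108 lower, and 5 members were higher (Tgfb2, Tgfb3, Bmp4, Grem1 and Smad3) and 0 lower, with 15 at an unadjusted p below 0.05 in edgeR. Deviations of same-numbered libraries correlated at -0.32, -0.33 and -0.10, and 0 of 6 libraries correlated best with their own number, so the numbers do not pair them.

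With the exonic lengths of GENCODE M21, an alternative chosen after seeing the data, the mean ratio of Smad2 to Smad3 TPM was 1.21 in WT and 0.576 in cKO. The counts do not cover the whole M21 length of Smad2, so these ratios do not order the genes. Depth limits Grem1, Inhbb and Bmp5 most, with 10 to 107 counts per library.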
